A study of Mus musculus with 8 samples.

Results

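The genes described here are 10 that direct helper T cell lineages or carry out their functions: the transcription factors Tbx21, Gata3, Rora, Bcl6 and Stat4, the cytokines Ifng and Il21, and the receptors Cxcr3, Cxcr5 and Pdcd1. They were found by symbol among the 51826 rows of the count table, using the entries of GENCODE M21 for GRCm38, and each symbol matched 1 row. Their transcripts were counted in the RNA of whole spleen cell preparations from 8 female Balb/c mice, each 3 months old. The 4 tRA mice received all-trans-retinoic acid, the active metabolite of vitamin A, by mouth every day from weaning at 1 mg/kg body weight, and the 4 control mice received the canola oil vehicle. No mouse received pristane, the agent with which the study induced lupus in other mice. The groups follow the sample titles, since the labels' dosing text names tRA for the controls too, whereas the paper describes these controls as dosed with vehicle. The sequencing reads assigned to genes totaled between 30919272 and 37539631 per control mouse and between 31810417 and 35165876 per tRA mouse.

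Naive CD4 T cells become helper cells of distinct kinds under the direction of lineage transcription factors. T-bet (Tbx21), with STAT4 downstream of the IL-12 receptor, drives the Th1 program and its cytokine IFN-gamma, GATA3 drives Th2 cells, ROR-alpha (Rora) takes part in the Th17 program, and BCL6 drives follicular helper T (Tfh) cells, which secrete IL-21 in B cell follicles. CXCR3 and CXCR5 are the chemokine receptors that guide Th1 and Tfh cells, and PD-1 (Pdcd1) is an inhibitory receptor of activated T cells. Several of these genes have other sources in a spleen, with T-bet, STAT4 and IFN-gamma in NK cells and CXCR5 and BCL6 in B cells.

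The libraries had the markers of a splenocyte preparation. All 8 B cell markers, 10 pan T cell markers, 3 CD4 and CD8 markers and 8 NK cell markers had counts in every mouse. Their levels were scaled to CPM, a gene's counts relative to the size of its library, by the TMM method, which adjusts for library composition. The B cell markers summed to 7074, 6516, 6308 and 5861 CPM in control mice 1 to 4 and to 6494, 6603, 6421 and 6469 in tRA mice 1 to 4. The pan T cell markers summed to 1877, 1839, 2239 and 2138 CPM in the control mice and 2259.7, 2042, 2043 and 2041 in the tRA mice. The groups overlapped in both sums. Cells were not separated, so fewer cells of a type and less RNA per cell cannot be told apart in any value that follows.

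All 10 genes passed the filter on low counts and were tested among 16484 genes by edgeR's quasi-likelihood test, with the FDR adjusted over all genes tested. None of the 10 had an FDR under 0.1, and 0 genes in all (0%) did. By DESeq2 44 genes and by limma-voom 1 gene passed that threshold, 0 of them among the 10. At an unadjusted p under 0.05 there were 2 of the 10, Stat4 with higher and Ifng with lower values under tRA, beside 6.49% of all genes tested (2.94% higher and 3.55% lower). The 4 tRA values lay outside the range of the 4 control values for 1 of the 10, Stat4, beside 3.54% of all genes, 1.91% with tRA higher and 1.63% with tRA lower. Without control mouse 2, Bcl6 joined Stat4 (2 of the 10 beside 6.61% of all genes), and without control mouse 4 Gata3 did (6.35%). Without tRA mouse 1 the second was Ifng (12.7%), and without tRA mouse 2 it was Tbx21 (5.24%). The number of all genes at an unadjusted p under 0.05 was 1070, and it was 2105 without tRA mouse 1 and 657 without tRA mouse 4, when 3 genes had an FDR under 0.1. The log2 fold change, tRA over control, was positive for 6 and negative for 4 of the 10, with a median of 0.11, and positive for 50.3% of all genes, with a median of 0.0014. The median of the 10 was 0.020 without tRA mouse 3 and 0.054 without tRA mouse 4, each with 5 positive and 5 negative. Scaled to the pan T cell markers, it was 0.058, beside -0.056 for all genes.

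**Figure D1:**
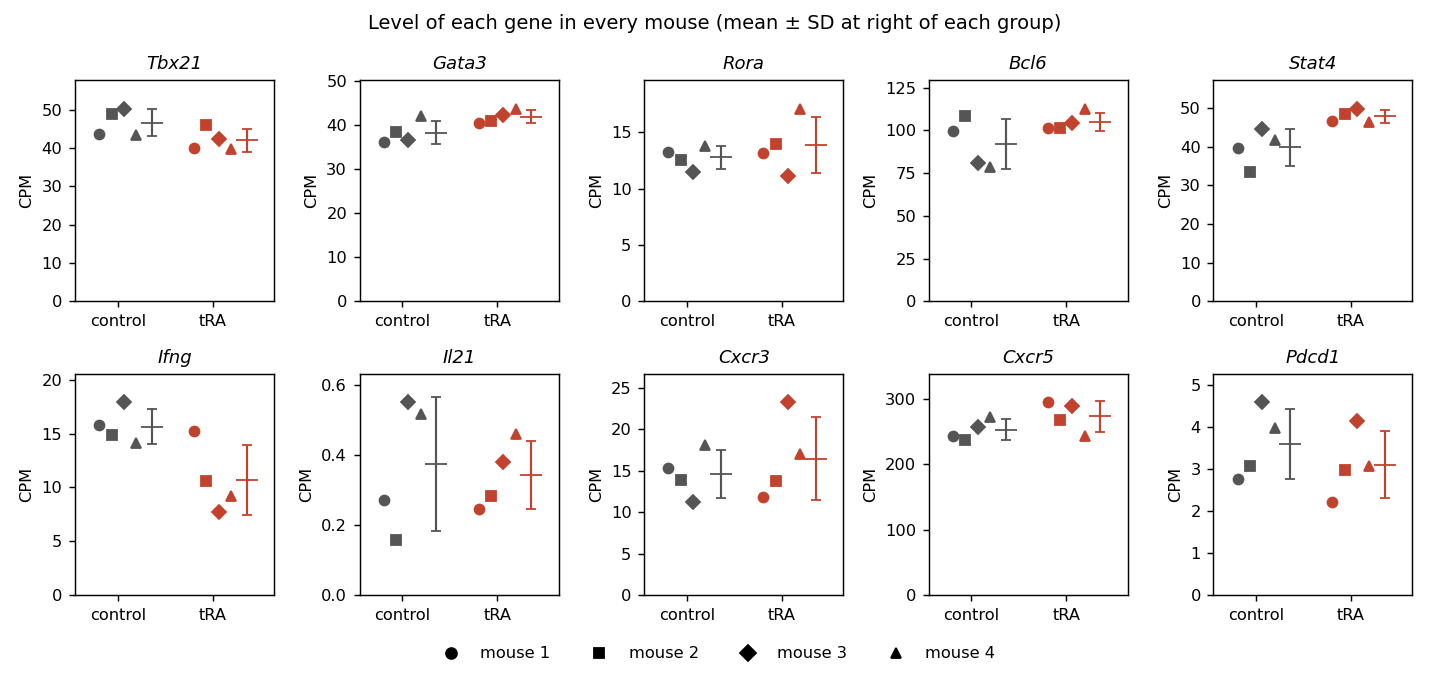
TMM-scaled CPM (vertical axes, from 0) of each of the 10 genes in the 4 control and the 4 tRA mice, 1 symbol per mouse, with the group mean and SD at the right. For Stat4 the 4 tRA mice (46.4 to 49.9) sit above the 4 control mice (33.5 to 44.6), and for the other 9 genes the groups overlap.

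Stat4 (ENSMUSG00000062939, chromosome 1 from 51987148 to 52107189), the factor that carries IL-12 signals to the nucleus, was the member with the clearest separation. It was expressed at 39.6, 33.5, 44.6 and 41.7 CPM in control mice 1 to 4 and at 46.8, 48.5, 49.9 and 46.4 in tRA mice 1 to 4. Every tRA mouse was above every control mouse, and the tRA mice were close together. Control mice averaged 39.8 ± 4.69 CPM (SD, n = 4) and tRA mice 47.9 ± 1.60 CPM (SD, n = 4). The fitted log2 fold change of 0.27 (FDR 0.757, standard error 0.0880, 95% interval 0.071 to 0.46) did not pass the adjustment over all genes. The estimate was 0.19 to 0.32 with each mouse left out in turn and 0.22 when scaled to the pan T cell markers. Counted per 1000 counts of the pan T cell markers of the same mouse, Stat4 was at 21.1, 18.2, 19.9 and 19.5 in the control mice and 20.7, 23.7, 24.4 and 22.8 in the tRA mice. On that scale tRA mouse 1 lay below control mouse 1, so that the groups overlapped.

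Tbx21 (ENSMUSG00000001444, chromosome 11 from 97098071 to 97115331), which encodes T-bet, was expressed at 43.7, 48.9, 50.3 and 43.5 CPM in control mice 1 to 4 and at 39.9, 46.0, 42.4 and 39.7 in tRA mice 1 to 4. Of the tRA mice, 3 lay below the lowest control mouse, and tRA mouse 2 lay within the control range. The log2 fold change of -0.15 (FDR 0.780, standard error 0.0792) had a 95% interval of -0.32 to 0.026, and was -0.20 to -0.12 with each mouse left out and -0.20 when scaled to the pan T cell markers. Gata3 (ENSMUSG00000015619, chromosome 2 from 9857078 to 9890034), the Th2 factor, was at 36.2, 38.4, 36.7 and 41.9 CPM in the control mice and at 40.5, 40.9, 42.4 and 43.7 in the tRA mice. The tRA mice were all above 3 of the control mice, and control mouse 4 lay among them. The log2 fold change of 0.13 (FDR 0.780, standard error 0.0707) had an interval of -0.027 to 0.29, and was 0.10 to 0.18 with each mouse left out and 0.074 when scaled to the pan T cell markers.

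Bcl6 (ENSMUSG00000022508, chromosome 16 from 23965052 to 23988852), the Tfh and germinal centre repressor, was at 99.7, 108, 81.0 and 78.7 CPM in control mice 1 to 4 and at 101, 101, 104 and 113 in tRA mice 1 to 4. Control mice 3 and 4 were lower than all the others, while control mice 1 and 2 spanned a range that held 3 of the tRA mice. Its log2 fold change of 0.19 (FDR 0.780, standard error 0.103) had an interval of -0.038 to 0.42, and it was 0.12 without control mouse 4, 0.28 without control mouse 2 and 0.12 when scaled to the pan T cell markers. Rora (ENSMUSG00000032238, chromosome 9 from 68653786 to 69388246), the nuclear receptor gene, was at 13.3, 12.5, 11.4 and 13.8 CPM in the control mice and 13.2, 14.0, 11.1 and 17.1 in the tRA mice. Here tRA mouse 3 was the lowest and tRA mouse 4 the highest of all 8. Its log2 fold change of 0.12 (FDR 0.872, standard error 0.132) had an interval of -0.17 to 0.41, and it was -0.00076 without tRA mouse 4, 0.060 without control mouse 3, 0.21 without tRA mouse 3 and 0.058 when scaled to the pan T cell markers.

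Of the cytokines, Ifng (ENSMUSG00000055170, chromosome 10 from 118441046 to 118445892) encodes IFN-gamma, which activates macrophages and induces MHC genes. It was expressed at 15.8, 14.8, 17.9 and 14.1 CPM in control mice 1 to 4 and at 15.2, 10.5, 7.75 and 9.20 in tRA mice 1 to 4. Each of tRA mice 2, 3 and 4 was below the lowest control mouse, while tRA mouse 1 lay within the control range, so that the groups overlapped. Control mice averaged 15.6 ± 1.64 CPM (SD, n = 4) and tRA mice 10.7 ± 3.24 CPM (SD, n = 4). Its log2 fold change of -0.55 (FDR 0.757, standard error 0.185, 95% interval -0.96 to -0.14) was the largest of the 10 in size and did not pass the adjustment. It was -0.43 without tRA mouse 3, -0.77 without tRA mouse 1 and -0.62 when scaled to the pan T cell markers. Per 1000 pan T cell marker counts, Ifng was at 8.40, 8.07, 7.99 and 6.59 in the control mice and 6.74, 5.17, 3.80 and 4.51 in the tRA mice, and tRA mouse 1 again lay within the control range.

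Il21 (ENSMUSG00000027718, chromosome 3 from 37222759 to 37232636), the cytokine by which Tfh cells help B cells, was close to the limit of the depth. It had 10, 5, 19 and 16 counts in control mice 1 to 4 and 8, 9, 14 and 15 in tRA mice 1 to 4. The 95% Poisson interval, which covers counting error alone, ran from 1.62 to 11.7 counts for the lowest mouse and from 11.4 to 29.7 for the highest. The tRA mice all lay within the control range. A difference was not detectable at this depth, given the fitted log2 fold change of -0.12 (FDR 0.970, standard error 0.424) and an interval of -1.06 to 0.81 that spans both directions. With each mouse left out the fold change ran from -0.37 to 0.12, and it was -0.14 when scaled to the pan T cell markers. Its sign changed without control mouse 3 (0.12), without control mouse 4 (0.067) and without tRA mouse 1 (0.0077).

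**Figure D2:**
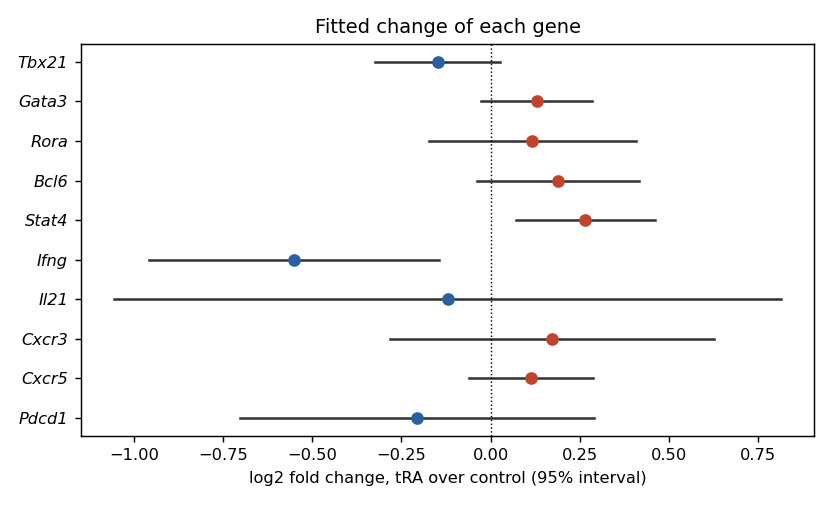
Fitted log2 fold change of each gene, tRA over control (horizontal axis), from edgeR's quasi-likelihood fit over 8 mice, with points for the estimates (red above 0, blue below) and lines for the 95% intervals. The intervals of Stat4 (0.071 to 0.46) and Ifng (-0.96 to -0.14) leave out 0 before adjustment over all genes, and that of Il21 is the widest.

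Among the receptors, Cxcr3 (ENSMUSG00000050232, chromosome X from 101731535 to 101734269), which follows the IFN-gamma-induced chemokines, was at 15.3, 13.8, 11.2 and 18.0 CPM in control mice 1 to 4 and at 11.8, 13.7, 23.2 and 17.0 in tRA mice 1 to 4. The value of tRA mouse 3 was the highest of all 8, and the other tRA mice lay within the control range. Its log2 fold change of 0.17 (FDR 0.878, standard error 0.206) had an interval of -0.28 to 0.63 and became -0.044 without tRA mouse 3. It was 0.057 without control mouse 3, 0.29 without control mouse 4, 0.30 without tRA mouse 1 and 0.12 when scaled to the pan T cell markers. Cxcr5 (ENSMUSG00000047880, chromosome 9 from 44511787 to 44561877), the receptor for the follicular chemokine CXCL13, was at 243, 237, 257 and 273 CPM in the control mice and 294, 267, 288 and 243 in the tRA mice. Both tRA mice 1 and 3 were above the control range, and 2 and 4 within it. Its log2 fold change of 0.11 (FDR 0.804, standard error 0.0793) had an interval of -0.062 to 0.29, and was 0.076 to 0.17 with each mouse left out and 0.057 when scaled to the pan T cell markers. Pdcd1 (ENSMUSG00000026285, chromosome 1 from 94038305 to 94052553) was at 2.76, 3.08, 4.59 and 3.97 CPM in the control mice and 2.23, 2.99, 4.15 and 3.09 in the tRA mice. Only tRA mouse 1 lay outside the control range, below it. Its log2 fold change of -0.21 (FDR 0.871, standard error 0.225) had an interval of -0.70 to 0.29, and it was -0.074 without control mouse 3, -0.076 without tRA mouse 1, -0.32 without control mouse 1, -0.38 without tRA mouse 3 and -0.24 when scaled to the pan T cell markers.

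To compare levels between genes, CPM were divided by the combined exon length in kilobases, which gives FPKM. Cxcr5 had the highest mean over the 8 mice at 78.8 FPKM, above 96.8% of the genes tested, and its range did not touch that of the next, Tbx21. After it stood Tbx21 at 17.8, Bcl6 at 14.7, Stat4 at 11.3, Ifng at 10.2, Gata3 at 10.1 and Cxcr3 at 8.96 FPKM, and the ranges of neighbours among these 6 overlapped. The order of neighbours was not the same in every mouse, with Stat4 above Ifng in 4 of 8 mice and Ifng above Gata3 in 5 of 8. Pdcd1 at 1.74 and Rora at 1.02 FPKM stood below Cxcr3 in every mouse, with Pdcd1 above Rora in 8 of 8 though their ranges over mice overlapped. Il21 was lowest at 0.0679 FPKM, above 1.24% of the genes tested, for which the median was 4.19 FPKM. The spread between mice was smallest for Cxcr5 among the control mice, at a coefficient of variation of 6.26%, and for Stat4 among the tRA mice, at 3.35%. It was largest for Il21 among the control mice (51.2%) and for Cxcr3 among the tRA mice (30.4%), where Ifng was at 30.4%.

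The TruSeq v2 protocol was named without a statement on strand, and without strand the reads of overlapping genes cannot be told apart where their exons coincide. Exons of Cxcr5 share 110 bp with Bcl9l on the opposite strand, a gene that had 5862 to 8769 counts per mouse. Ifng shares 336 bp with Gm49751, a transcript on the same strand. Gm49751 had 56, 98, 79 and 58 counts in control mice 1 to 4 and 32, 83, 104 and 96 in tRA mice 1 to 4, so that tRA mouse 1, the highest of the tRA mice for Ifng, was the lowest of all 8 for it. Stat4 shares 1033 bp with Gm28177, a transcript on the same strand that had 3 to 8 counts. The genes that overlap exons of Gata3, Bcl6, Rora and Il21 had at most 8 counts in any mouse. Reads in these overlaps could have been given to either gene or to none.

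Ratios of opposed genes within a mouse do not depend on library scaling, and 3 were compared by exact permutation of the mice, for which 4 against 4 allow no p under 0.0286. The log2 ratio of Tbx21 to Gata3, the Th1 to the Th2 factor, was 0.27, 0.35, 0.46 and 0.051 in control mice 1 to 4 and -0.022, 0.17, 0.0018 and -0.14 in tRA mice 1 to 4. It was lower on average in the tRA mice, but control mouse 4 lay among the tRA mice (difference of -0.28, two-sided exact permutation p = 0.0571, 0.171 adjusted over 3 ratios). The log2 ratio of Cxcr3 to Cxcr5 was -3.98, -4.10, -4.52 and -3.92 in the control mice and -4.64, -4.28, -3.64 and -3.84 in the tRA mice. Its groups overlapped throughout, and the highest and the lowest of the 8 were both tRA mice (difference of 0.033, two-sided exact permutation p = 0.943, 0.943 adjusted over 3 ratios). The log2 ratio of Bcl6 to Prdm1, the repressor that opposes it in B and T cells, was 2.90, 2.41, 2.29 and 2.14 in the control mice and 2.73, 2.27, 2.54 and 2.55 in the tRA mice. The control mice spanned the range of the tRA mice (difference of 0.089, two-sided exact permutation p = 0.686, 0.943 adjusted over 3 ratios). No ratio had an unadjusted p under 0.05. After adjustment over 3 ratios, a single ratio at the smallest possible p of 0.0286 would also stay above 0.05. A threshold of 0.05 on the adjusted values alone therefore decides nothing. The adjusted values of 0.171, 0.943 and 0.943 were also above 0.1. The difference of Cxcr3 to Cxcr5 was -0.12 without tRA mouse 3, -0.10 without control mouse 3 and -0.055 without tRA mouse 4, and that of Bcl6 to Prdm1 was -0.010 without control mouse 4.

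The other genes of each lineage were read as lists, by counts and medians beside the median of 0.0014 over all genes tested, and 0 genes of the 17 lists passed an FDR of 0.1 in edgeR. Parentheses give the lowest and highest median on leaving out a mouse and, as "per pan T", the median when scaled to the pan T cell markers, which was -0.056 over all genes. At an unadjusted p under 0.05 stood 2.94% of all genes with higher and 3.55% with lower values, or 0.607% and 5.51% when scaled to the pan T cell markers, beside which the counts below are to be read. The parentheses after such a count give its range on leaving out a mouse, in how many of those 8 analyses it was the same, and the counts of higher and lower values per pan T. Groups that did not overlap were found for 1.91% of all genes with tRA higher and 1.63% with tRA lower. Of the 13 Th1 pathway genes, all tested, 0 had higher and 1 had lower values at an unadjusted p under 0.05 (0 to 1 higher and 1 to 2 lower without a mouse, the same in 6 of 8, 0 and 1 per pan T), with a median log2 fold change of 0.051 (-0.0072 without tRA mouse 3 to 0.12 without control mouse 4, -0.0065 per pan T). That gene was Lta, a lymphotoxin gene, at 31.8, 37.0, 34.0 and 36.5 CPM in control mice 1 to 4 and 24.6, 30.2, 29.0 and 30.6 in tRA mice 1 to 4. Since cells were not separated, the values of a listed gene, here and below, cannot be assigned to helper T cells. The 4 tRA mice lay below the 4 control mice (log2 fold change -0.28, standard error 0.0888, FDR 0.757). The Th1 gene with the highest level per length was Tnf, for which the groups overlapped (37.8 to 66.0 CPM in the control mice and 38.6 to 60.7 in the tRA mice).

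Of the 11 Th2 pathway genes, 9 were tested, with a median of 0.054 (0.027 without control mouse 3 to 0.10 without control mouse 1, -0.0029 per pan T), 0 higher and 1 lower at an unadjusted p under 0.05 (0 to 2 higher and 0 to 1 lower without a mouse, the same in 4 of 8, 0 and 1 per pan T). The cytokines Il5 and Il13 were too low to test, each at 0 counts in at least 1 mouse. The gene past that threshold, the chemokine receptor gene Ccr8, was at 1.03, 0.903, 1.21 and 1.84 CPM in the control mice and 0.764, 1.01, 0.624 and 0.642 in the tRA mice. Its groups overlapped, as tRA mouse 2 lay within the control range (log2 fold change -0.71, standard error 0.289, FDR 0.757; -0.47 without control mouse 4). Stat6, the mediator of IL-4 signals and the most abundant per length, was at 346 to 380.3 and 356 to 396 CPM.

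Of the 13 Th17 pathway genes, 10 were tested, with 9 higher and 1 lower and a median of 0.14 (0.11 without tRA mouse 4 to 0.21 without control mouse 4, 0.084 per pan T). The lineage cytokines Il17a, Il17f and Il22 were too low to test and each at 0 counts in at least 1 mouse. At an unadjusted p under 0.05 stood 1 with higher values and 0 with lower (0 to 2 higher and 0 lower without a mouse, the same in 4 of 8, 0 and 0 per pan T). Scaled to the pan T cell markers, the list had 7 higher and 3 lower. Il23r, the IL-23 receptor gene that maintains Th17 cells, was at 0.460, 0.560, 0.462 and 0.259 CPM in control mice 1 to 4 and 0.794, 0.661, 0.786 and 0.642 in tRA mice 1 to 4. Every tRA mouse was above every control mouse, at levels that rest on 8 to 29 counts (log2 fold change 0.72, standard error 0.288, FDR 0.757). Irf4, the most abundant per length, was at 276, 265, 193 and 266 CPM in the control mice and 367, 302, 159 and 178 in the tRA mice, where mice 1 and 2 stood above and mice 3 and 4 below every control mouse.

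Of the 12 Tfh pathway genes, 11 were tested (all but Ascl2, at 0 counts in at least 1 mouse), with 10 higher and 1 lower, a median of 0.11 (0.12 without tRA mouse 3 to 0.19 without control mouse 2, 0.055 per pan T), and 4 with higher and 0 with lower values at an unadjusted p under 0.05 (1 to 4 higher and 0 lower without a mouse, the same in 4 of 8, 0 and 0 per pan T), beside 2.94% and 3.55% of all genes. The 4 became 1 without control mouse 1 (2.59% of all genes higher) and 2 without tRA mouse 4 (1.56%). Scaled to the pan T cell markers, the list had 9 higher and 2 lower. The list also holds Prdm1, which opposes Bcl6 and whose own log2 fold change of 0.11 is the middle value. The 1 lower gene was Sh2d1a, at -0.16, and Lef1, counted among the higher, was at 0.00067. Of the 10 helper genes, Bcl6 and Cxcr5 were at 0.19 and 0.11, and Il21 and Pdcd1 at -0.12 and -0.21. The summed level of the list was 1243, 1317, 1248 and 1307 CPM in control mice 1 to 4 and 1499.7, 1467, 1433 and 1495 in tRA mice 1 to 4, with every tRA mouse above every control mouse. It consisted mostly of Tcf7, Slamf6, Btla and Lef1, at means of 409, 345, 218 and 188 CPM in the control mice. Scaled to the pan T cell markers, the summed level ran from 1145 to 1472 in the control mice and from 1364 to 1506 in the tRA mice, and the groups overlapped.

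Btla, an inhibitory receptor of Tfh and B cells, was at 241, 267, 179 and 186 CPM in the control mice and 272, 305, 289 and 287 in the tRA mice. The tRA mice all lay above the highest control mouse, mouse 1 by the least (log2 fold change 0.40, standard error 0.122, FDR 0.757). Slamf6, an adhesion receptor of lymphocytes, was at 322, 351, 361 and 344 CPM in the control mice and 369, 386, 404 and 407 in the tRA mice. Its groups did not overlap either (log2 fold change 0.18, standard error 0.0669, FDR 0.757). Scaled to the pan T cell markers, the groups of both Btla and Slamf6 overlapped, and those of Btla did with library size alone as the scale. The most abundant gene of the list, Tcf7, a factor of naive and follicular T cells, was at 377 to 454 CPM in the control mice and 449 to 496 in the tRA mice, and its groups overlapped (log2 fold change 0.21, standard error 0.0779, FDR 0.757). With library size alone as the scale, every tRA mouse was above every control mouse for Tcf7. Cd200, a surface glycoprotein gene and the last of the 4, was at 27.8 to 34.5 CPM in the control mice and 31.4 to 41.2 in the tRA mice.

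The 8 regulatory T cell genes, all tested, had 3 higher and 5 lower and a median of -0.23 (-0.28 without control mouse 1 to -0.13 without control mouse 4, -0.28 per pan T), with 0 higher and 0 lower at an unadjusted p under 0.05 (0 higher and 0 to 2 lower without a mouse, the same in 5 of 8, 0 and 1 per pan T). On the pan T cell scale there were 2 higher and 6 lower, and 0 to 3 were higher with each mouse left out. Ctla4, an inhibitory receptor and the most abundant of them per length, was at 47.5, 45.2, 42.7 and 53.9 CPM in control mice 1 to 4 and 64.4, 45.0, 21.2 and 18.3 in tRA mice 1 to 4. Here tRA mouse 1 was the highest and tRA mice 3 and 4 were the lowest of all 8. The gene with the lowest p, Ikzf2, the Helios factor, was at 14.7 to 21.1 CPM in the control mice and 11.5 to 16.6 in the tRA mice.

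Of the 12 polarizing signals, made by antigen-presenting cells, 10 were tested, with 5 higher and 5 lower and a median of -0.0041 (-0.017 without tRA mouse 3 to 0.071 without control mouse 3, -0.057 per pan T). At an unadjusted p under 0.05 stood 0 with higher and 2 with lower values (the same without any mouse, 0 and 2 per pan T), and with library size alone as the scale the median was 0.026. Scaled to the pan T cell markers, 4 higher and 6 lower were found. The lowest p was that of Ebi3, a subunit shared by IL-27 and IL-35 (9.04 to 12.1 CPM in the control mice, 7.40 to 9.25 in the tRA mice, log2 fold change -0.38). The other was Il12b, a subunit of IL-12 and IL-23, at 1.00 to 1.68 CPM in the control mice and 0.567 to 1.19 in the tRA mice. Il6 and Il23a were too low to test. The most abundant per length, Icosl, the ligand of the Tfh costimulator ICOS, was at 334 to 378 CPM in the control mice and 342 to 406 in the tRA mice. Of the 9 ligands and receptors that pair with the cytokines and receptors above, 8 were tested, with 4 higher and 4 lower. Their median was 0.018 (-0.042 without tRA mouse 3 to 0.052 without control mouse 4, -0.031 per pan T), with 0 higher and 1 lower at an unadjusted p under 0.05 (0 higher and 0 to 1 lower without a mouse, the same in 5 of 8, 0 and 1 per pan T), and on the pan T cell scale 2 higher and 6 lower were found. The gene with the lowest p was Cxcl9, a CXCR3 ligand induced by IFN-gamma, at 6.44, 6.50, 5.75 and 7.50 CPM in control mice 1 to 4 and 4.25, 5.10, 5.80 and 5.29 in tRA mice 1 to 4. Only tRA mouse 3 lay within the control range, and the other 3 were below it (log2 fold change -0.36, standard error 0.140, FDR 0.757). Cxcl11 was too low to test. Ifngr1, a chain of the IFN-gamma receptor and the most abundant, was at 146 to 180.2 and 160.3 to 176 CPM.

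Genes that IFN-gamma induces were examined beside Ifng. Of the 11, 10 were tested (all but Nos2), with 6 higher and 4 lower, 0 at an unadjusted p under 0.05 (0 to 1 higher and 0 to 1 lower without a mouse, the same in 6 of 8, 0 and 1 per pan T) and a median of 0.075 (0.025 without tRA mouse 3 to 0.088 without tRA mouse 2, 0.017 per pan T). Their summed level was 1027, 1127, 1077 and 1077 CPM in the control mice and 1065, 1047, 1119.7 and 1139.8 in the tRA mice, and the groups overlapped. Irf1, the most abundant per length, was at 285, 313, 321 and 285 CPM in the control mice and 337, 299, 249 and 265 in the tRA mice. Socs1, a feedback inhibitor of cytokine receptors with the lowest p of the list, was at 23.6, 20.9, 25.4 and 22.5 and 27.2, 16.7, 12.4 and 12.1 CPM. As for Ifng, its tRA mice 2, 3 and 4 were below the control range, while tRA mouse 1 was above it (log2 fold change -0.44, standard error 0.224, FDR 0.780). Without tRA mouse 1 its log2 fold change was -0.75.

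The groups overlapped in the summed level of every list of lymphocyte markers. Of the 10 pan T cell markers, 1 had higher and 0 had lower values at an unadjusted p under 0.05 (0 to 4 higher and 0 lower without a mouse, the same in 3 of 8, 0 and 0 per pan T), with a median of 0.093 (0.045 without control mouse 2 to 0.13 without control mouse 4, 0.043 per pan T). That gene, Cd28, was at 66.5 to 85.5 CPM in the control mice and 76.0 to 99.0 in the tRA mice, and the most abundant per length, Trac, at 259.7 to 322 and 291 to 334. Cd4, the co-receptor of helper T cells, was at 229.7, 221, 227 and 261 CPM in control mice 1 to 4 and 272, 235, 267 and 288 in tRA mice 1 to 4, with 3 of the tRA mice above the control range (log2 fold change 0.18, standard error 0.0814, FDR 0.757). Of these CD4 and CD8 markers, 0 of 3 passed an unadjusted p of 0.05 (0 to 1 higher and 0 lower without a mouse, the same in 6 of 8, 0 and 0 per pan T), with a median of 0.13 (0.0089 without control mouse 1 to 0.20 without control mouse 4, 0.089 per pan T) and a sum of 422, 483, 516 and 561 CPM in the control mice and 498, 546, 582 and 568 in the tRA mice. Cd8a was at 97.5 to 150.3 and 113 to 161 CPM and Cd8b1 at 94.8 to 150.0 and 113 to 153.

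The NK cell markers, from cells that also express Tbx21, Stat4 and Ifng, summed to 319, 418, 484 and 314 CPM in control mice 1 to 4 and 388, 390.2, 392 and 349 in tRA mice 1 to 4. The tRA mice lay within the control range. Of the 8, 0 passed an unadjusted p of 0.05 (0 to 1 higher and 0 lower without a mouse, the same in 6 of 8, 0 and 0 per pan T), with a median of -0.0092 (-0.077 without control mouse 1 to 0.077 without control mouse 3, -0.065 per pan T) that was 0.022 with library size alone as the scale, and the most abundant, Gzma, had a mean of 150.2 CPM with vehicle and 137 with tRA. Ncr1, with the lowest p, was at 36.3 to 60.7 and 50.3 to 66.5 CPM. The 6 markers of gamma delta T cells and innate-like lymphocytes, which also express Rora and Gata3, all had positive log2 fold changes, though 4 had when scaled to pan T cell markers and 5 in 6 of the 8 analyses without a mouse, with a median of 0.28 (0.22 without control mouse 3 to 0.32 without control mouse 2, 0.22 per pan T). Of these markers, 2 had higher and 0 had lower values at an unadjusted p under 0.05 (1 to 3 higher and 0 lower without a mouse, 1 and 0 per pan T). Their summed level was 203, 196, 199 and 261 CPM in the control mice and 251, 258, 249.8 and 306 in the tRA mice, where control mouse 4 lay within the tRA range. It consisted mostly of Il7r, the IL-7 receptor of naive T cells and innate lymphocytes, at a mean of 185 CPM with vehicle and 233 with tRA (log2 fold change 0.33, standard error 0.124, FDR 0.757). Sox13, a factor of gamma delta T cells, was the only gene of the list whose groups did not overlap (1.14 to 1.59 CPM with vehicle, 2.02 to 2.79 with tRA, FDR 0.757 in edgeR and under 0.1 in DESeq2). Whether these markers have a part in the values of Gata3, Rora or Stat4 was not tested.

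B cells express Cxcr5 and Bcl6. Of the 8 B cell markers, 0 passed an unadjusted p of 0.05 (0 to 1 higher and 0 lower without a mouse, the same in 6 of 8, 0 and 0 per pan T), with a median of 0.025 (-0.016 without control mouse 4 to 0.072 without control mouse 1, -0.042 per pan T). The most abundant, Cd79a, a chain of the B cell receptor, was at 1273 to 1539.9 CPM in the control mice and 1179 to 1377 in the tRA mice, and Ms4a1, with the lowest p, at 471 to 741 and 626 to 745. The 6 germinal centre B cell markers were low, with a sum of 14.0, 12.2, 12.6 and 13.4 CPM in control mice 1 to 4 and 10.7, 13.0, 16.3 and 15.4 in tRA mice 1 to 4. The tRA mice spanned the control range. Their median was 0.085 (-0.011 without tRA mouse 4 to 0.25 without tRA mouse 1, 0.039 per pan T), and 1 had higher and 0 had lower values at an unadjusted p under 0.05 (0 to 1 higher and 0 lower without a mouse, the same in 2 of 8, 0 and 0 per pan T). It was the sphingosine phosphate receptor gene S1pr2 (4.05 to 4.49 and 4.46 to 6.29 CPM). The most abundant per length, Gcsam, was at 3.21 to 4.36 and 1.80 to 4.07 CPM.

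Lists from outside the helper lineages were examined beside these genes. The 10 immediate early and heat shock genes, which cells switch on within minutes of activation or handling, summed to 17519.8, 16353, 17172 and 14455 CPM in control mice 1 to 4 and 15741, 12820.0, 5795 and 8172 in tRA mice 1 to 4. The level of tRA mouse 1 was within the control range, and tRA mice 2, 3 and 4 were below it. From the highest to the lowest, the tRA mice stood in the order 1, 2, 4 and 3, which was also their order for Ifng. The order was not particular to Ifng, as Tnf, Irf4, Irf1 and Il1b had it too, while Socs1 and Ctla4 did not. All 10 genes had negative log2 fold changes, with a median of -0.55 (-0.91 without tRA mouse 1 to -0.38 without tRA mouse 3, -0.63 per pan T), and 0 were higher and 5 lower at an unadjusted p under 0.05 (0 higher and 3 to 9 lower without a mouse, the same in 6 of 8, 0 and 7 per pan T), beside 3.55% of all genes. Fos, the most abundant, had a mean of 3184 CPM with vehicle and 2216 with tRA. For Jun, Fosb, Egr1 and Hspa1a every tRA mouse was below every control mouse, as for Jun at 2565, 2626, 2730.5 and 2122 and 2094, 1869, 1231 and 1537 CPM. Of all genes, 1.63% had every tRA mouse below every control mouse. By DESeq2 2 of the 10, Jun and Egr1, had an FDR under 0.1. Hspa1a has a near-identical copy, Hspa1b, with which it can share reads, so its level is uncertain. The part of these genes' level in that of Ifng was not tested.

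The 10 neutrophil precursor markers summed to 566, 714, 751 and 646 CPM in control mice 1 to 4 and 262, 324, 356 and 511 in tRA mice 1 to 4, and every tRA mouse was below every control mouse. All 10 had negative log2 fold changes, with a median of -0.86 (-1.02 without tRA mouse 4 to -0.74 without tRA mouse 1, -0.91 per pan T), with 0 higher and 8 lower at an unadjusted p under 0.05 (0 higher and 8 to 9 lower without a mouse, the same in 5 of 8, 0 and 9 per pan T). The groups did not overlap for 6 of them, Ngp, Camp, Ltf, Elane, Prtn3 and Ctsg, beside 1.63% of all genes with tRA lower. Ngp, the most abundant, had a mean of 325 CPM with vehicle and 171 with tRA, and Camp had the lowest FDR of all genes tested (log2 fold change -1.23, standard error 0.156, FDR 0.135 by edgeR). By DESeq2 4 of the 10 had an FDR under 0.1, namely Ngp, Camp, Ltf and Lcn2. Among the tRA mice, mouse 1 was the lowest for this list and the highest for Ifng. The reverse did not hold, as mouse 4 was the highest for this list and mouse 3 the lowest for Ifng. The part of these cells in the values of the 10 helper genes was not tested. The 6 erythroid markers, globin genes among them that have near-identical copies, had sums of 811, 1526, 2396 and 491 CPM in the control mice and 2286, 623, 3541 and 587 in the tRA mice. They were highest in control mouse 3 and tRA mice 1 and 3, and their groups overlapped, with a median of 0.44 (-0.14 without tRA mouse 3 to 0.89 without control mouse 3, 0.39 per pan T) and 0 of 6 at an unadjusted p under 0.05 (the same without any mouse, 0 and 0 per pan T). Hbb-bs, the most abundant, had means of 837 and 1142 CPM, and Hbb-bt had the lowest p (15.0 to 89.8 and 19.9 to 171 CPM).

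**Figure D3:**
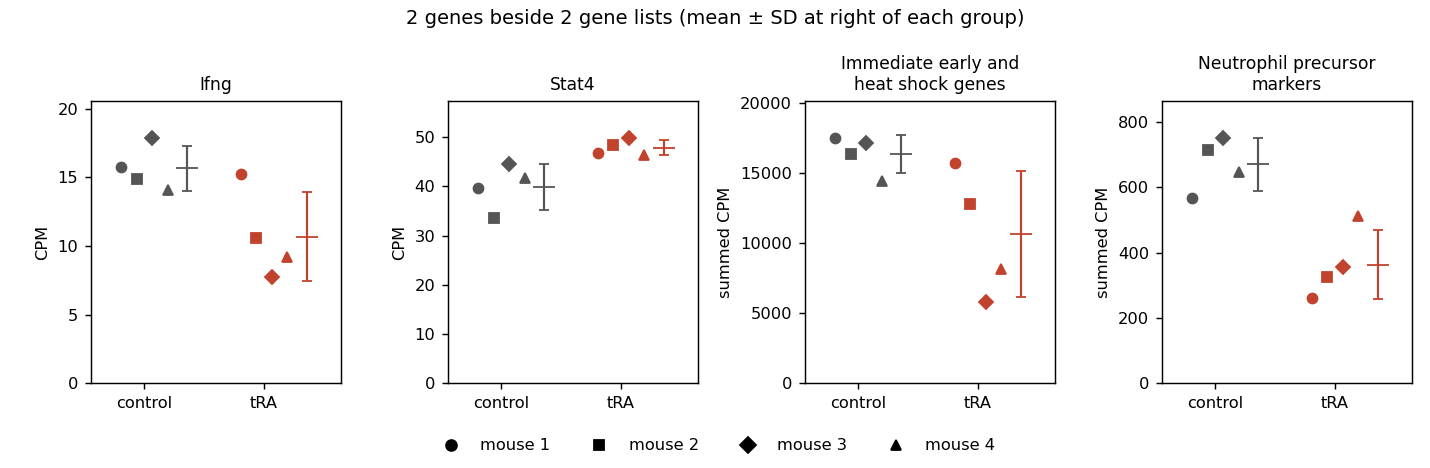
Ifng and Stat4 (TMM-scaled CPM) beside the summed CPM of the 10 immediate early and heat shock genes and of the 10 neutrophil precursor markers in every mouse, with the group mean and SD at the right. For Ifng and for the immediate early genes tRA mouse 1 lies within the control range and tRA mouse 3 is the lowest, at 7.75 and 5795.

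Promoter sequences were read to show which letters known from the regulation of these genes stand before their starts. The RefSeq table for GRCm38.p6 gave windows for 9 of the 10 genes, of which the 250 bases before the start were searched on both strands for 4 motifs. Retinoid receptors bind the core letters AGGTCA, the factors of the GATA3 family are known for AGATAA, STAT proteins for TTCNNNGAA and T-box proteins for TCACACC. The retinoid receptor core and the T-box motif can overlap in their letters TCA. The first of these motifs was found before 2 of the 9 genes, Stat4 and Pdcd1, beside 15.8% of all 27025 genes with a window. The STAT motif was found before 2, Bcl6 and Ifng, beside 8.13% of all genes. The GATA and the T-box motif were found before 0 of the 9, beside 11.4% and 3.84%. A match describes these letters and is not a binding site. Shown 5′ to 3′ on the strand of the gene, with the match in capitals (in Pdcd1 the motif lies on the other strand), are the match of Stat4, before the first of its 2 starts (chr1:51987071-51987092, plus strand), that of Pdcd1 (chr1:94052581-94052602, minus strand), that of Ifng (chr10:118440796-118440813, plus strand) and the 4 of Bcl6 on the minus strand (chr16:23981435-23981459, chr16:23981389-23981413, chr16:23981355-23981379 and chr16:23988954-23988978), of which the last precedes another start than the other 3. Before the second start of Stat4 no match was found.
Stat4, 69 bases before the start: cctcctgtAGGTCAtaggagca
Pdcd1, 41 bases before the start: ctccaacaTGACCTgggacagt
Ifng, 249 bases before the start: tTTCAGAGAAtcccacaa
Bcl6, 168 bases before the start: gccgcggcTTCCTGGAAagttactt
Bcl6, 122 bases before the start: caggagtgTTCTGTGAAatccttag
Bcl6, 88 bases before the start: cgactacgTTCCGGGAAtgagaggg
Bcl6, 118 bases before the start: caaattagTTCTCAGAAttccagag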

How the data were processed

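Per the paper and the labels, RNA of total splenocytes (integrity scores above 8) was made into TruSeq v2 libraries and sequenced on an Illumina instrument. The values are whole-number read counts per gene, not normalized, as the authors deposited them. The submitters' processing notes name GRCm38, STAR 2.5.2b, featureCounts 1.5.1 and DESeq2 1.26.0, while the paper's methods name Bowtie2, Tophat2 and HTSeq, so which aligner and counter made the counts is uncertain. A second deposited table holds the authors' own DESeq2 comparison of the groups (fold changes and p-values) and was not used.

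Gene names, positions and exon lengths came from GENCODE M21 (GRCm38), which matched 51633 of 51826 rows and is not stated to be the authors' release. Genes were kept by edgeR's filterByExpr (minimum count 10), scaled by TMM and compared by edgeR's quasi-likelihood test with group alone in the model and Benjamini-Hochberg adjustment over all genes tested (FDR under 0.1). Standard errors and 95% intervals are those of the fitted log2 fold change before adjustment. Ratios were compared by two-sided exact permutation tests. Each of the 8 libraries differed from every other beyond sampling noise (chi-square per degree of freedom from 9.54 upward), so all were kept. From each list the text names the gene with the highest FPKM, that with the lowest p and those whose groups do not overlap, with Cd4 and Cd8a and all 10 members. Other genes named, where a count covered few, and the overlapping transcripts were chosen after their values were seen. Members and lists were chosen with earlier results of these data known, and lists can share a gene, as with Eomes. Alternatives were other scalings, filters and tools, a replicate block and leaving out each mouse. The fits were tried on simulated counts with 200 changed genes, where only recovery of the largest changes was required. These counts were drawn gene by gene, so shifts shared by many genes of a mouse were not covered. R 4.3.3, edgeR 4.0.16, limma 3.58.1, DESeq2 1.42.0, Python 3.11.15 and matplotlib 3.10.9 were used.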

Additional observations from a re-analysis of the deposited data

Results flagged for a closer look

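Within each group of 4 mice, the CPM of a gene, a ratio, the summed CPM of a list or the total count was examined for a mouse far from the other 3 (a gap to the nearest above Dixon's 95% critical share of the range). This was met in 5 of 62 groups of values, where chance gives about 1 in 20, which is 3.10. The polarizing signals summed to 842 CPM in control mouse 2 and 756 to 765 in the other control mice. The pan T cell markers summed to 2259.7 CPM in tRA mouse 1 and 2041 to 2043 in the other tRA mice, which lowers the values of that mouse when they are scaled to these markers. The NK cell markers summed to 349 CPM in tRA mouse 4 and 388 to 392 in the other tRA mice. The gamma delta T and innate-like lymphocyte markers summed to 261 CPM in control mouse 4 beside 196 to 203, and to 306 in tRA mouse 4 beside 249.8 to 258.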

How the results depend on the processing

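None of the 10 genes had an FDR under 0.1 in edgeR under any scaling, filter, block or left-out mouse, nor by DESeq2 or limma-voom, with 2 or 3 of them at an unadjusted p under 0.05 in each, beside 3.93% (without tRA mouse 4) to 12.6% (without tRA mouse 1) of all genes. Of all genes, 0 passed with TMM, 1 when scaled to pan T cell markers, 44 by DESeq2, 1 by limma-voom, 6 with no filter on low counts, and between 0 and 3 on omitting a mouse. The groups did not overlap for 1 of the 10 genes with TMM, 0 when scaled to pan T cell markers (beside 3.86% of all genes), and for 1 to 2 of them when a mouse was omitted, where fewer mice make separation easier. Of 159 values of the 10 genes, 153 kept their sign. Those of Rora (-0.00076 to 0.21 with each mouse left out), Cxcr3 (-0.044 to 0.30) and Il21 (-0.37 to 0.12, and 0.0023 by limma-voom) did not. Of 687 values of 43 list genes, 12 changed sign. Scaled to pan T cell markers, Stat6 was at -0.0029, Ifngr1 at -0.0026 and Irf4 at -0.077, and Irf4 was at -0.064 by limma-voom. With each mouse left out, Irf4 ran from -0.23 to 0.18, Ifngr1 from -0.0016 to 0.092, Cd8b1 from -0.016 to 0.20, Gzma from -0.25 to 0.053 and Hbb-bs from -0.16 to 0.93. The difference in the log2 ratio of Cxcr3 to Cxcr5 ran from -0.12 to 0.21 and that of Bcl6 to Prdm1 from -0.010 to 0.25. The cause was not tested. Of the list genes, Sox13, Ngp, Camp, Ltf, Lcn2, Jun and Egr1 passed by DESeq2, with no filter or without tRA mouse 4 Ngp, Camp and Ltf did, and by limma-voom or scaled to pan T cell markers Camp did.

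Same-numbered mice of the groups share only a number: their deviations correlated at 0.157, -0.0229, -0.0140 and 0.259, and only tRA mouse 4 correlated best with its own number. With replicate number as a block, 0 genes passed and 1200 were at an unadjusted p under 0.05, Irf4 was at -0.063, and the call of no member changed. Depth limits Il21 most, which was not tested with at least 10 counts asked of every mouse.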
